A study of Homo sapiens with 6 samples.

Results

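The genes described here code for the proteasome, its immune variant, its activators and its assembly chaperones. They were taken as every gene symbol of the HG-U133 Plus 2.0 annotation that begins with PSMA, PSMB, PSMC, PSMD, PSME, PSMF or PSMG followed by digits. A gene needed a probe set annotated to it alone, and the probe set with the highest mean log2 intensity over all 6 arrays stood for it. This gave 50 of the 19775 genes measured. Of these, 42 code for proteasome proteins, and the other 8 share only the letters of the name: the antisense or divergent noncoding genes PSMA3-AS1, PSMB8-AS1, PSMD14-DT, PSMD6-AS2, PSMD7-DT and PSMG3-AS1, and the genes PSMC3IP and PSME3IP1, whose products are not subunits. PSMA6, PSMB11, PSMC5, PSMD7, PSMD13 and PSME2 had no probe set that met the rule and were not analysed here.

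RNA came from SW480, an established human colorectal adenocarcinoma line. By their labels, 3 samples were of cells overexpressing CPEB3, a protein that binds mRNAs and regulates their translation, and 3 were of negative control cells (NC). Both groups were transfected and share the line and its growth medium. The sources used here do not give the construct, its promoter or the time after transfection. The labels call the replicates biological without naming cultures or days, so p-values measure only the spread between these samples. CPEB3 mRNA went against the labels: of its 4 probe sets, 3 were lower in the arrays labelled CPEB3 and 1 did not differ past the threshold. All 3 lay below the median of all probe sets, with differences of -0.25 to -1.44 on the log2 scale. The brightest differed by 0.05, so the check rests on dim probe sets. Every direction below rests on the labels alone. Arrays of pooled cells do not tell fewer cells of a kind from less mRNA per cell. Of 10 colon epithelial markers, EPCAM had a mean log2 intensity of 11.13 in the arrays labelled CPEB3, against 11.09 in the NC arrays, while CDH17 and LGALS4 lay below the median of all probe sets (3.89 to 3.93 by array).

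The proteasome is the protease that degrades ubiquitin-tagged proteins. Its barrel-shaped core is built of alpha rings, which gate the entrance, and beta rings, of which PSMB5, PSMB6 and PSMB7 carry the cutting sites. A regulatory particle caps the core, with a base of PSMC ATPases that unfold the substrate and a lid that removes ubiquitin. Interferon makes cells replace the cutting subunits with PSMB8 (for PSMB5), PSMB9 (for PSMB6) and PSMB10 (for PSMB7), which yields the immunoproteasome. It also raises the activator formed by PSME1 and PSME2. The peptides so made are pumped into the endoplasmic reticulum by TAP1 and TAP2 and loaded on class I HLA molecules.

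The promoters of the immune subunits and of PSME1 are shown because interferon acts on these genes through short elements near their starts, and that of TAP1 because it lies back to back with PSMB9. Each window runs from 250 bases before to 50 bases after a gene start (RefSeq, GRCh38.p14), 5′ to 3′ on the gene's own strand. They are PSMB9 at chr6:32853942-32854241 (plus strand), TAP1 at chr6:32853655-32853954 (minus strand), the second of the PSMB8 starts at chr6:32843998-32844297 (minus strand), PSMB10 at chr16:67936801-67937100 (minus strand) and PSME1 at chr14:24135944-24136243 (plus strand). Capitals mark matches on either strand to GAAANNGAA (the core of the interferon-stimulated response element, read TTCNNTTTC on the other strand), TTCNNNGAA (the gamma-activated site, the same on both strands) or TGACNNNGC (the core of the antioxidant response element, read GCNNNGTCA on the other strand).
PSMB9: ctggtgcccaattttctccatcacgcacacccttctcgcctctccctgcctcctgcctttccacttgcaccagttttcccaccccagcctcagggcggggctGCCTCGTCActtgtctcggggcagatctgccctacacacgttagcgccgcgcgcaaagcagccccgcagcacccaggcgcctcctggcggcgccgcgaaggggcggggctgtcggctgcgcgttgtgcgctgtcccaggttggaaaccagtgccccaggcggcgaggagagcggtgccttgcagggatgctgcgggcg
TAP1: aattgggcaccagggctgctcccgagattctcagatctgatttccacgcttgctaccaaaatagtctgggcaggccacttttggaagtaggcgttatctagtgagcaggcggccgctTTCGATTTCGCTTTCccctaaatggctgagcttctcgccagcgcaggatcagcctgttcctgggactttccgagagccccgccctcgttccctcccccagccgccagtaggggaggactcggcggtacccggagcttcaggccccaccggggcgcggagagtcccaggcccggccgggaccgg
PSMB8: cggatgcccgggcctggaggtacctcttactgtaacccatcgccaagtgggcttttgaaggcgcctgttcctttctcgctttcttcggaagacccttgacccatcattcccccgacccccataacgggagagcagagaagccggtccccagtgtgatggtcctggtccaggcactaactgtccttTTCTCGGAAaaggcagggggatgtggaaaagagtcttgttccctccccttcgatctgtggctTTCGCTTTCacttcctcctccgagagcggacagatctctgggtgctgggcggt
PSMB10: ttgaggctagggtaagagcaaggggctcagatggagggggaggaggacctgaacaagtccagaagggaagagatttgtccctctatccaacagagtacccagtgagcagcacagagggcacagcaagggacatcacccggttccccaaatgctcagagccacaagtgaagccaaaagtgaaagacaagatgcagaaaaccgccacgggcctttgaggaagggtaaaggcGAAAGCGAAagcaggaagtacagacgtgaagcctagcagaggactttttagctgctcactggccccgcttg
PSME1: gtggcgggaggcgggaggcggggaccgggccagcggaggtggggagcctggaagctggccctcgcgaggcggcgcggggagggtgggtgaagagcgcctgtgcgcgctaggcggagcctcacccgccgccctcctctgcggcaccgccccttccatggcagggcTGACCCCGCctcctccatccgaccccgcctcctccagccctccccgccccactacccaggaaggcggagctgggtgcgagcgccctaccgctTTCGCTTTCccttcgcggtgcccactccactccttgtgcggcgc

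The PSMB9 window held 1 antioxidant response core and no match to the other motifs. The TAP1 window held a pair of overlapping response element cores, ttcgatttc and ttcgctttc, 133 and 127 bases before the TAP1 start. They lie in the 488 bases between both starts, 355 and 361 bases before that of PSMB9, and so outside its window. PSMB8, PSMB10 and PSME1 each held 1 response element core with the same middle letters (gaaagcgaa, or ttcgctttc on the other strand). That of PSMB8 began 3 bases before the start and that of PSMB10 21 bases before it, while that of PSME1 lay just past the start. The other PSMB8 window held none of the motifs. Promoters were found for 36 of the 42 coding members, and the response element core was in those of 7 (19.4%), namely PSMA4, PSMB4, PSMB8, PSMB10, PSMC2, PSME1 and PSMG4, against 9.86% of the 27305 genes in the table. The gamma-activated site was in 8 (22.2%, against 9.38% of all genes) and the antioxidant core in 13 (36.1%, against 16.1%). A match describes letters and not a site in use.

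The comparison of the groups asked which mRNA levels differed where CPEB3 overexpression was labelled. Among the proteasome genes PSMB9 stood far from the rest: its mRNA was 15.9-fold lower in the arrays labelled CPEB3, whereas no other member that passed the test changed by more than 1.51-fold. At a Benjamini-Hochberg adjusted p under 0.05 in limma, 13 of the 50 members (26%) passed, against 23.3% of all genes. Of these, 9 were lower, where 12.5% of all genes were lower, and 4 were higher, where 10.9% were higher. The share of members past the test, both directions together, was thus near that of all genes. The 42 coding members held all 9 lower calls and 2 of the 4 higher ones. The other 2 higher calls were the noncoding PSMD14-DT and PSMD6-AS2. The median difference over the members was -0.08 on the log2 scale, beside 0.02 over all genes. The 3 values of one group lay wholly apart from those of the other in 28 members, where this was so for 39.1% of all genes. When 1 array was left out in turn, 5 to 10 members were lower and 0 to 2 higher, so no such fit kept all 4 higher calls. Calls over all genes also dropped in these fits, to 9.41% to 12.2% lower and 7.65% to 9.82% higher. Centring each array on its hybridization spike-ins adds 0.17 to every difference on the log2 scale. Then 4 members were lower (PSMB9, PSME1, PSMD11 and PSMB8) and 11 higher, beside 4.98% of all genes lower and 31.2% higher. Small changes of either sign are therefore relative to the scaling.

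PSMB9 replaces PSMB6 in the immunoproteasome and changes which peptide ends are cut. Its deposited intensity was 21.7, 24.6 and 22.8 in the 3 arrays labelled CPEB3, against 368, 378 and 350 in the 3 labelled NC. The groups lay far apart, each with little spread. On the log2 scale it averaged 4.52 ± 0.09 in the arrays labelled CPEB3, against 8.51 ± 0.06 in the NC arrays (SD, n = 3 each). The difference was -3.99 (SE 0.07, 95% interval -4.14 to -3.84; limma, Benjamini-Hochberg adjusted p = 2.16e-09). The level in the arrays labelled CPEB3 was 6.30% of that in NC. PSMB9 had the ninth largest fall of the 19775 genes and passed under all 17 alternative settings, with differences of -4.04 to -3.82. A single probe set measures it, so no other probe set of the gene stands beside this value.

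PSMB8, which replaces PSMB5, was dim in every array. Its log2 intensity was 2.18, 2.67 and 2.61 in the arrays labelled CPEB3 and 2.81, 3.44 and 2.74 in those labelled NC, all below the median of all probe sets. The groups did not overlap, but the nearest values differed by little and the spread was wide. The difference was -0.51 with a 95% interval from -0.93 to -0.08 and did not pass (limma, Benjamini-Hochberg adjusted p = 0.0852). It passed as lower under 3 of 15 alternatives, namely with an intensity trend, with spike-in centring and with the replicate number as a block (adjusted p over all alternatives 0.0208 to 0.265). At this brightness a fold change can be understated, and no detection call was used.

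PSMB10, which replaces PSMB7, did not pass. Its log2 intensity was 6.65, 6.61 and 6.88 in the arrays labelled CPEB3, against 6.46, 6.60 and 6.67 in those labelled NC. The groups overlapped. The difference of 0.14 had a 95% interval from -0.06 to 0.33 and limma's Benjamini-Hochberg adjusted p = 0.290. This interval lies well clear of that of PSMB9. PSMB10 passed as higher with spike-in centring, at 0.30.

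PSME1 codes for the alpha subunit of the activator PA28, a ring that binds the ends of the core and opens its gate. Its deposited intensity was 853, 812 and 846 in the arrays labelled CPEB3, against 1210.3, 1295 and 1286 in those labelled NC. All values of the arrays labelled CPEB3 lay below all values of the arrays labelled NC. The difference of -0.59 on the log2 scale (SE 0.06, 1.51-fold; limma, Benjamini-Hochberg adjusted p = 1.39e-04) was the second largest fall among the members that passed. It passed under all 17 alternatives, at -0.63 to -0.43, and together with PSMB9 it was the only member to do so.

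The constitutive cutting subunits, which the immune ones replace, did not pass. PSMB6 differed by 0.01 (95% interval -0.15 to 0.16) and PSMB7 by 0.03 (-0.11 to 0.16). PSMB5 had log2 intensities of 9.97, 9.95 and 10.01 in the arrays labelled CPEB3, against 9.70, 9.85 and 9.82 in those labelled NC. These values did not overlap, and the difference of 0.19 just missed the threshold (limma, Benjamini-Hochberg adjusted p = 0.0621). PSMB5 passed as higher under 5 of 17 alternatives.

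Because a ratio within an array does not move with the scaling of that array, each immune subunit was also set against its counterpart. PSME1 was set against PSME3, another activator and not a subunit that it replaces. The log2 ratio of PSMB9 to PSMB6 was -5.49, -5.25 and -5.41 in the arrays labelled CPEB3, against -1.25, -1.39 and -1.52 in those labelled NC. This is a change of -4.00 in the ratio, nearly all of it from PSMB9. The ratio of PSMB8 to PSMB5 changed by -0.69 and that of PSMB10 to PSMB7 by 0.11. The ratio of PSME1 to PSME3 changed by -0.85, from both a lower PSME1 and a higher PSME3. In the exact two-sided permutation test, 3 of these 4 ratios gave p = 0.1, the smallest that 3 against 3 arrays allow, and PSMB10 to PSMB7 gave p = 0.2 (Benjamini-Hochberg adjusted over the 4: 0.133 and 0.2). Only ratios are compared here, since levels at different probe sets are not on a common scale.

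**Figure D1:**
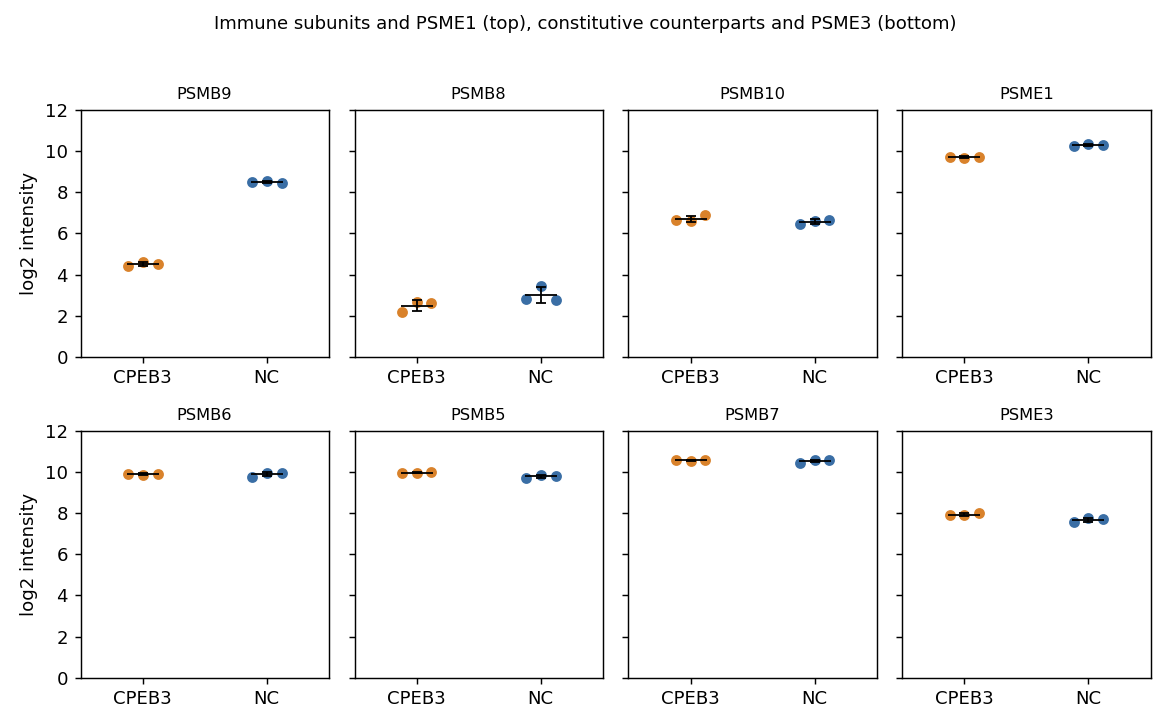
Log2 intensity (vertical axis) of the immune subunits and PSME1 in the top row, and of the constitutive counterparts and PSME3 in the bottom row. Points are the 3 arrays labelled CPEB3 (left) and the 3 labelled NC (right), horizontal dashes are means and bars are 1 SD. PSMB9 averages 4.52 in the arrays labelled CPEB3, against 8.51 in the NC arrays, while the groups overlap for PSMB10, PSMB6 and PSMB7.

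Of the remaining activators PSME3 was higher and PSME4 did not pass. PSME3 codes for the gamma subunit of PA28, a nuclear activator. Its log2 intensity was 7.89, 7.89 and 8.02 in the arrays labelled CPEB3, against 7.57, 7.76 and 7.71 in those labelled NC, with no overlap. It rose by 0.26 (1.19-fold; limma, Benjamini-Hochberg adjusted p = 0.0307). All 4 of its probe sets passed as higher, with differences of 0.22 to 0.42, but the call at the probe set that stands for the gene held in only 1 of 6 fits that each left out 1 array (that without NC replicate 2). PSME4, the large single-chain activator PA200, differed by -0.06 and did not pass (adjusted p = 0.462), but all 3 of its probe sets were negative and 1 was lower by 0.48. PSMF1, the proteasome regulator PI31, differed by 0.10 with limma's Benjamini-Hochberg adjusted p = 0.307.

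In the alpha ring none of the 7 measured members passed, with differences from -0.14 (PSMA3) to 0.10 (PSMA2) on the log2 scale and limma Benjamini-Hochberg adjusted p-values of 0.0986 to 0.997. At an unadjusted p under 0.05, PSMA3 would count as lower. PSMA8, a subunit known from the testis, was near the bottom of the scale in both groups, with log2 intensities of 1.12 to 1.29 in the arrays labelled CPEB3, against 1.06 to 1.26 in the NC arrays. Among the beta subunits without a cutting site, PSMB2 and PSMB1 were lower and PSMB3 and PSMB4 did not pass. PSMB2 had log2 intensities of 9.95, 9.89 and 9.92 in the arrays labelled CPEB3, against 10.15, 10.30 and 10.28 in those labelled NC, a 1.25-fold fall without overlap (limma, Benjamini-Hochberg adjusted p = 0.00564). The fall of PSMB2 rests on 1 of its 4 probe sets, the brightest. The others differed by 0.04 to 0.16, with mean log2 intensities in the arrays labelled CPEB3 of 6.25, 2.42 and 3.69. Those at 2.42 and 3.69 lay below the median of all probe sets. With only probe sets specific to 1 transcript the difference of PSMB2 was 0.16, at the dim probe set of 3.69. PSMB1 fell by 0.21 (1.15-fold; limma, Benjamini-Hochberg adjusted p = 0.0266) and kept its call in 1 of 6 fits that left out an array (that without NC replicate 1). All 3 of its probe sets were negative, but tested one by one only 1 passed. A probe set almost as bright, at 11.08 in the arrays labelled CPEB3 against 11.19 in those labelled NC, differed by -0.11 and did not pass.

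In the base of the regulatory particle all 5 measured ATPase genes had negative differences. These turned positive for PSMC1 and PSMC2 with spike-in centring. For PSMC2 the brighter of its probe sets specific to 1 transcript also gave a positive difference (0.07), while the other gave -0.08. PSMC4 alone passed. Its log2 intensity was 8.51, 8.45 and 8.35 in the arrays labelled CPEB3, against 8.72, 8.74 and 8.76 in those labelled NC. The groups were apart, at a 1.24-fold fall (limma, Benjamini-Hochberg adjusted p = 0.00706) that was lost only with spike-in centring. PSMC6, PSMC3, PSMC2 and PSMC1 differed by -0.18, -0.19, -0.13 and -0.11, with limma Benjamini-Hochberg adjusted p-values of 0.074 to 0.236. PSMD4, a ubiquitin receptor of the base, fell by 0.27 (adjusted p = 0.0146), and 3 of its 4 probe sets were lower by 0.27 to 0.30. The call was lost without CPEB3 replicate 2 or NC replicate 2. Its remaining probe set, which was dim, differed by -0.07. The scaffolds PSMD1 and PSMD2 differed by -0.20 and -0.04 and did not pass.

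The lid held the steepest fall of a constitutive subunit. PSMD11, a scaffold subunit of the lid, had log2 intensities of 8.49, 8.51 and 8.28 in the arrays labelled CPEB3, against 8.98, 8.94 and 8.95 in those labelled NC. The groups lay clearly apart. The difference was -0.53 (SE 0.07, 1.45-fold; limma, Benjamini-Hochberg adjusted p = 8.26e-04) and passed in 16 of 17 alternatives. The exception was the setting with only probe sets specific to 1 transcript, where its other probe set gave -0.22 (adjusted p = 0.144). PSMD3 fell by 0.24 (1.18-fold, adjusted p = 0.0311), a call kept in 2 of 6 fits without an array (those without CPEB3 replicate 3 or NC replicate 1). PSMD12 went the other way by probe set: the one that stands for the gene differed by 0.13 (adjusted p = 0.203) and the other rose by 0.44. PSMD14, the enzyme that clips ubiquitin off the substrate, differed by -0.15 (adjusted p = 0.152), PSMD6 by 0.00 and PSMD8 by 0.06.

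**Figure D2:**
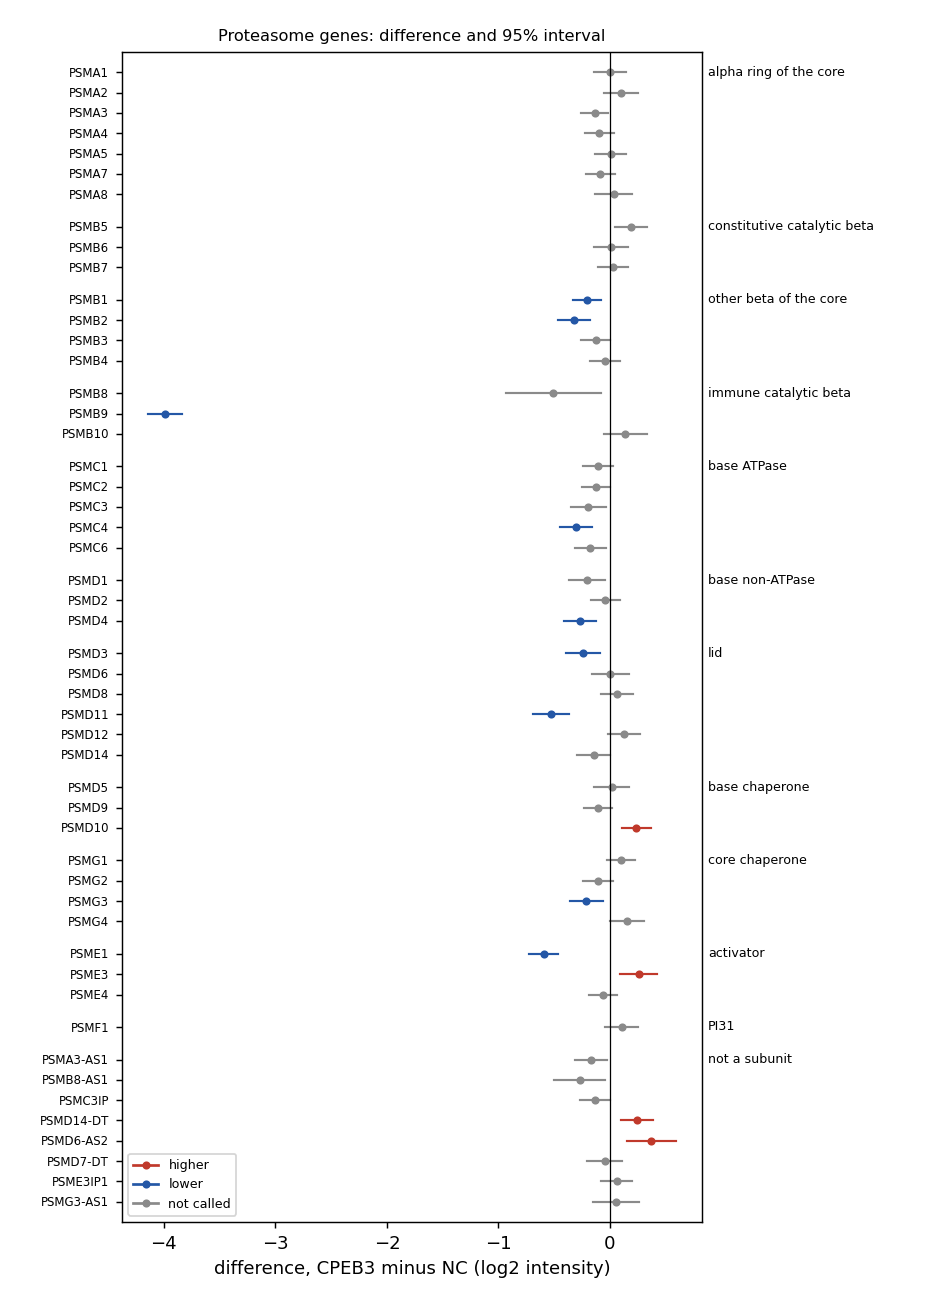
Difference in log2 intensity (horizontal axis, arrays labelled CPEB3 minus arrays labelled NC) for all 50 members, grouped by role. Points are limma estimates, bars 95% intervals, and colours show the direction at an adjusted p under 0.05. PSMB9 lies at -3.99, and every other member lies between -0.59 and 0.37.

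Assembly factors went both ways. PSMD10, also called gankyrin, which helps the ATPase ring assemble, had log2 intensities of 9.19, 9.19 and 9.08 in the arrays labelled CPEB3, against 8.92, 8.93 and 8.89 in those labelled NC. The groups were apart, at a rise of 0.24 (limma, Benjamini-Hochberg adjusted p = 0.0183) that held in 3 of 6 fits without an array and was lost without CPEB3 replicate 1, CPEB3 replicate 2 or NC replicate 3. The other base chaperones PSMD5 and PSMD9 differed by 0.02 and -0.11 and did not pass, and the second probe set of PSMD9 was higher by 0.41. Of the chaperones that build the core, PSMG3 fell by 0.21 (adjusted p = 0.0461), a borderline call kept in 1 of 6 fits without an array (that without NC replicate 1). PSMG1, PSMG2 and PSMG4 differed by 0.10, -0.11 and 0.16, with limma Benjamini-Hochberg adjusted p-values of 0.132 to 0.253.

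Of the 8 members without a place in the particle, 4 lay below the median of all probe sets. PSMD6-AS2 rose by 0.37 (limma, Benjamini-Hochberg adjusted p = 0.0212) at 1 of its 2 probe sets, and PSMD14-DT by 0.24 (adjusted p = 0.0245) at one of these dim levels. The PSMD14-DT call held in 1 of 6 fits without an array (that without CPEB3 replicate 3), and the PSMD6-AS2 call was lost without CPEB3 replicate 3, NC replicate 2 or NC replicate 3. Their coding neighbours PSMD6 and PSMD14 differed by 0.00 and -0.15. PSMB8-AS1, antisense to PSMB8, differed by -0.27 (adjusted p = 0.0887) at its brighter probe set and was lower by 0.61 at the other. Both probe sets were dim. PSMA3-AS1, PSMC3IP, PSMD7-DT, PSME3IP1 and PSMG3-AS1 ranged from -0.17 to 0.06 and did not pass.

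Over the 28 members grouped as the constitutive particle, 6 were lower and 0 higher, beside 12.5% of all genes lower and 10.9% higher. Their differences ran from -0.53 to 0.19 with a median of -0.10. These 28 hold the testis subunit PSMA8. They leave out SEM1 and ADRM1, both lower, which were counted as partners, and the unmeasured PSMA6, PSMC5, PSMD7 and PSMD13. With spike-in centring 1 of these 28 was lower and 3 were higher, beside 4.98% of all genes lower and 31.2% higher. With 1 array left out 3 to 7 were lower and 0 higher, beside 9.41% to 12.2% of all genes lower and 7.65% to 9.82% higher. The counts also depended on the choice of probe set. With the most variable one 4 of the 28 were lower and 2 higher, beside 12.7% and 10.7% of all genes. With the mean of probe sets 6 were lower and 2 higher, beside 10.7% and 9.98% of all genes. With only probe sets specific to 1 transcript, 2 of the 22 subunits left were lower and 0 higher. Other settings raised the lower count. With an intensity trend 13 of the 28 were lower and 1 higher, beside 15.1% of all genes lower and 13.1% higher. Without dim genes 10 of the 27 subunits left were lower and 1 higher. No share of all genes was computed for the settings that drop genes. By limma at an unadjusted p under 0.05, 11 of the 28 would be lower, among them PSMA3, PSMC2, PSMC3, PSMC6 and PSMD1, and 1 higher (PSMB5), against 17.4% of all genes lower and 17.8% higher. Of the 31 coding members that did not pass, 29 lay above the median of all probe sets. At the probe set that stands for each gene, their 95% intervals reached at most from -0.36 to 0.33 on the log2 scale under the deposited scaling. Other probe sets of PSMD12, PSMD9 and PSME4 lay outside these limits, at 0.44, 0.41 and -0.48. Replicates were tight, with a median SD of 0.06 in the arrays labelled CPEB3, against 0.05 in the NC arrays, over the 42 coding members.

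Several members have more than 1 probe set, and these did not always move alike. Tested one by one with adjustment over all single-gene probe sets, 81 probe sets of the 42 coding members gave 11 lower and 8 higher. Over all 41091 such probe sets 17.6% passed, 9.66% lower and 7.99% higher. In no member were some probe sets called lower and others higher. Probe sets agreed most for PSME3, with 4 of 4 higher, and for PSMD4, with 3 of 4 lower. For PSMA5, PSMD9, PSMD12 and PSME4 the probe set that stands for the gene did not pass while another did. Where these probe sets lie in the transcripts was not analysed here.

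**Figure D3:**
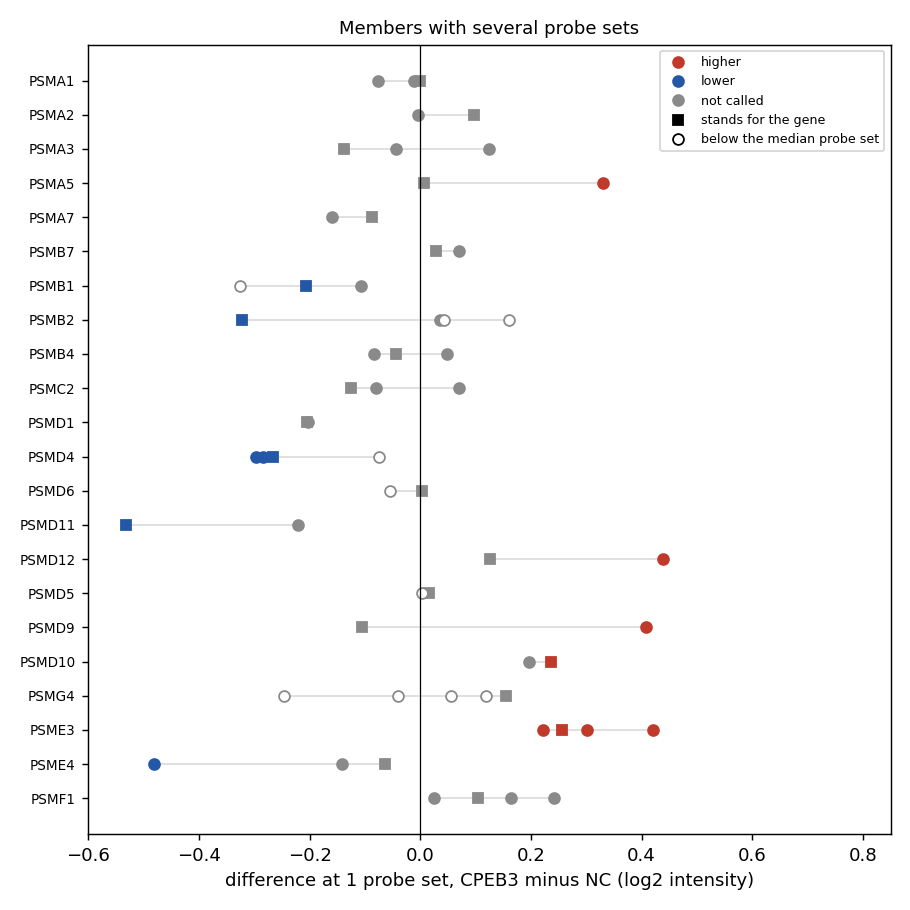
Difference in log2 intensity (horizontal axis, arrays labelled CPEB3 minus arrays labelled NC) at each probe set of the coding members with several probe sets. Squares stand for the gene, open symbols lie below the median of all probe sets, and colours show the direction at an adjusted p under 0.05. All 4 probe sets of PSME3 are higher, and the call of PSMB2 rests on 1 of 4.

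Genes around the proteasome were counted in a partner list of 38 measured genes, written with earlier results of these data known. Of these, 21 were lower and 3 higher, with a median difference of -0.24, beside 12.5% and 10.9% of all genes. The spread by role was wide. All 3 measured interferon regulators of the immunoproteasome fell: NLRC5, the class I transactivator, by 1.87, IRF1, a transcription factor that acts on the TAP1 and PSMB9 promoter, by 1.48, and IRF9 by 1.23 on the log2 scale (limma, Benjamini-Hochberg adjusted p at most 2.61e-06). Of 13 genes of class I peptide loading, 9 fell and 2 rose. Among those that fell, ERAP1 kept its call in 2 of 6 fits without an array and TAPBP in 1 of 6. TAP1 had intensities of 65.2, 76.7 and 77.2 in the arrays labelled CPEB3, against 355, 368 and 375 in those labelled NC, with no overlap and a 5.02-fold fall. TAP2 fell by 1.81, HLA-B by 1.45, HLA-F by 1.24 and HLA-C by 1.14 on the log2 scale. The HLA genes are near copies of each other and their probe sets can read more than 1 of them. The 2 that rose were the chaperones CALR (0.36) and CANX (0.20), and CANX turned to -0.08 at its most variable probe set and kept its call in 1 of 6 fits without an array (that without NC replicate 1).

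In the RefSeq order on chromosome 6, TAP2, PSMB8, PSMB8-AS1, TAP1 and PSMB9 stand next to each other. Their differences were -1.81, -0.51, -0.27, -2.33 and -3.99 on the log2 scale, all negative, of which those of PSMB8 and PSMB8-AS1 did not pass. HLA-DOB on one side of the block differed by -0.06 and LOC100294145 on the other by -0.05, with limma Benjamini-Hochberg adjusted p = 0.605 and 0.715. Both were dim. LOC100294145 had a mean log2 intensity of 2.73 under the CPEB3 label, against 2.78 under NC, below the median of all probe sets. HLA-DOB had 3.87, against 3.93, close to that median. At these levels a fall can be understated. The pseudogene PPP1R2P1, between PSMB9 and LOC100294145, had no value. Where the block ends was not tested. PSMB10 and PSME1 lie on other chromosomes.

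Of 12 partners of the constitutive particle 6 were lower and 0 higher, beside 12.5% of all genes lower and 10.9% higher, with differences from -0.58 to 0.06. At an unadjusted p under 0.05 in limma the higher side would still hold 0 of these 12. Several of the falls were unstable. Of the 6, only AKIRIN2 kept its call with spike-in centring. TXNL1 kept its call in 0 of 6 fits without an array. With only probe sets specific to 1 transcript UCHL5 differed by 0.33 and ZFAND5 by -0.01. ADRM1, a ubiquitin receptor of the base, had log2 intensities of 7.83, 7.80 and 7.72 in the arrays labelled CPEB3, against 8.01, 8.12 and 8.10 in those labelled NC. The groups were apart, at a fall of 0.29 (limma, Benjamini-Hochberg adjusted p = 0.00935) that was lost only with spike-in centring. AKIRIN2, which carries proteasomes into the nucleus, fell by 0.58, and SEM1, a small lid subunit, by 0.35. POMP, the chaperone that completes the core, differed by -0.04 (adjusted p = 0.685). NFE2L1, the transcription factor that raises proteasome genes when the proteasome is blocked, fell by 0.26 (adjusted p = 0.0131), a call lost without NC replicate 2 and with spike-in centring. NFE2L2, a related factor, differed by -0.11 (adjusted p = 0.197). Among shuttle and unfolding factors RAD23B fell by 0.28. UBQLN4 rose by 0.25, but did not pass without CPEB3 replicate 3.

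**Figure D4:**
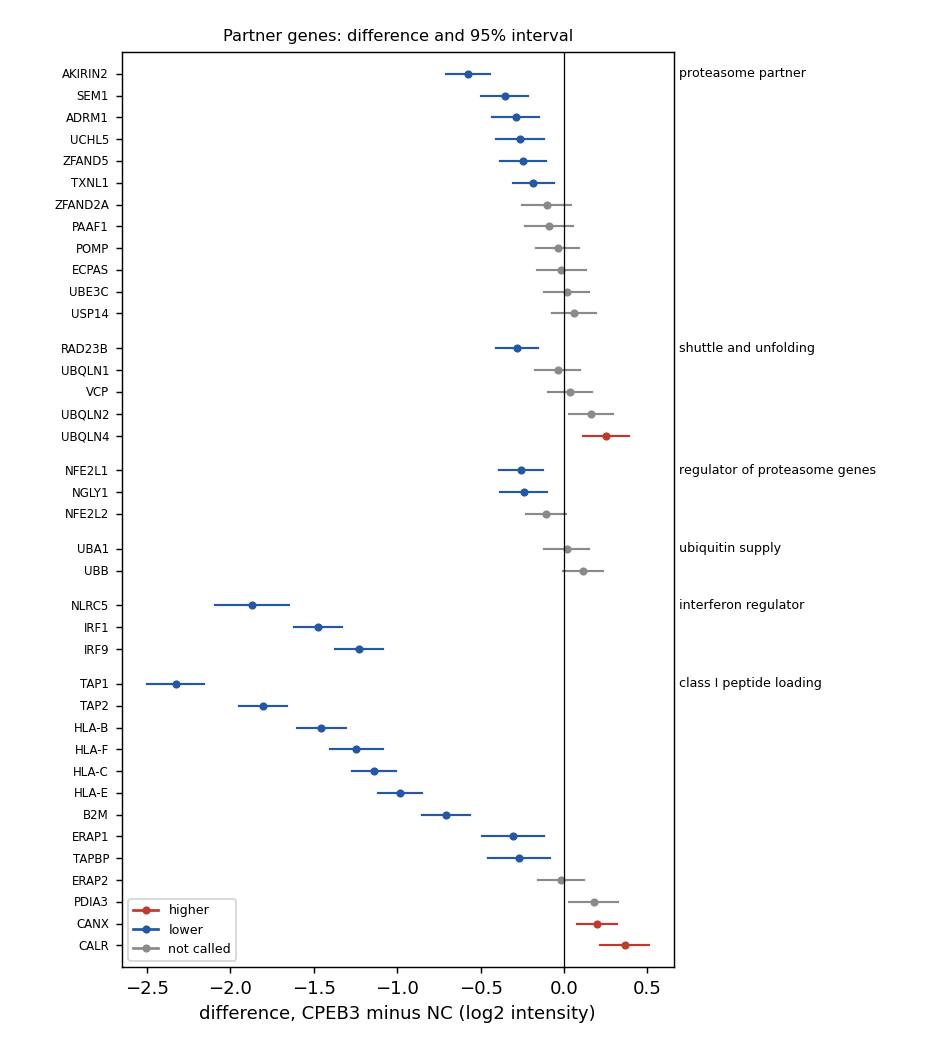
Difference in log2 intensity (horizontal axis, arrays labelled CPEB3 minus arrays labelled NC) for the 38 partner genes, grouped by role. Points are limma estimates, bars 95% intervals, and colours show the direction at an adjusted p under 0.05. The interferon regulators lie between -1.87 and -1.23, and the partners of the constitutive particle between -0.58 and 0.06.

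Leukocytes make immunoproteasome without a stimulus, so their markers were read beside the fall of PSMB9. Over all genes 10.9% were higher and 12.5% lower. Of 12 measured leukocyte markers 1 was higher (ITGAM) and 1 lower (CORO1A), and 7 lay below the median of all probe sets. Their summed intensity was 194 to 204 in the arrays labelled CPEB3, against 178 to 185 in those labelled NC. The defining marker PTPRC had a mean log2 intensity of 1.62 in the arrays labelled CPEB3, against 1.48 in the NC arrays, close to the bottom of the scale. Fibroblast and endothelial markers had 1 of 10 higher (DCN), with a summed intensity of 185 to 197 in the arrays labelled CPEB3, against 174 to 181 in the NC arrays. Of these 10, 6 lay below the median of all probe sets. Whether the mix of cells differed between the groups was not tested. Of the 10 colon epithelial markers 2 were higher (KRT18 and KRT20) and 0 lower, with sums of 6671 to 6918 in the arrays labelled CPEB3, against 6027 to 6121 in the NC arrays. No marker was at 0, and the part of the markers that moved in these results was not tested.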

How the data were processed

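The authors hybridised RNA from 6 samples to Affymetrix HG-U133 Plus 2.0 arrays. The deposited intensity of a probe set is linear and was made with RMA, per the submitters' processing notes, with array medians of 14.8 to 15.2. The sources used here give neither the software version nor how RMA values came to be linear. RMA gives every array the same distribution, which hides changes of total RNA and shrinks those of dim genes. Precision is limited by the number of arrays.

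Groups came from the titles. Log2 was taken, control probe sets were left out, and 41091 probe sets annotated to 1 symbol gave 19775 genes. All 50 members matched RefSeq (GRCh38.p14) by Entrez identifier, and 0 symbols changed. Each gene's difference was tested in limma 3.58.1 (R 4.3.3, lmFit, eBayes, group as the only term, two-sided, Benjamini-Hochberg over all genes, threshold 0.05, 5.06 prior degrees of freedom). Intervals are at 95%. Ratios used an exact permutation test. In simulated data for the comparison of 19775 genes the test recovered 14% of changes of 0.25, 70% of 0.5 and 98% of 1 on the log2 scale, with 7 false calls of 148. Far more genes, 4616, passed in the real comparison. The adjusted threshold depends on that share, so these rates need not hold there.

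The members and lists were chosen with earlier results of these data known. All members were named, and of the partners the 8 largest called changes plus IRF1, NLRC5, TAP1, NFE2L1, NFE2L2, POMP and ADRM1. Some genes of the partner and marker lists are not reported here. Other partners, HLA-DOB, LOC100294145 and the markers were named after their values were seen. Alternatives were other choices of probe set, no dim genes, other scalings, other variance models, array weights, a replicate block, a threshold of 0.01 and leaving out each array. Figures were drawn with matplotlib 3.10.9.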

Additional observations from a re-analysis of the deposited data

How the results depend on the processing

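PSMB9, PSME1, TAP1, TAP2, NLRC5, IRF1, IRF9, HLA-B, HLA-C and HLA-F kept direction and call under every alternative run for them at a threshold of 0.05. So did AKIRIN2, which was lower, and CALR, which was higher. Of the 13 members that passed, 5 did so in all 6 fits that left out 1 array, which is a smaller sample. At a threshold of 0.01, 1083 genes were higher and 1520 lower, 0 members higher and 5 lower, and 1 partner higher. Spike-in centring gave 6166 genes higher and 984 lower, 11 members higher and 4 lower, and 6 partners higher and 11 lower. It adds 1 constant, so it turned small falls positive: PSMA3 0.028, PSMA4 0.072, PSMA7 0.078, PSMB3 0.039, PSMB4 0.122, PSMC1 0.056, PSMC2 0.040, PSMD2 0.122, PSMD14 0.020, PSMD9 0.060, PSMG2 0.059, PSME4 0.101, PSMC3IP 0.034, PSMD7-DT 0.12, POMP 0.128 and NFE2L2 0.058. With only probe sets specific to 1 transcript, which leaves fewer genes, 2 members were higher and 5 lower and 11 partners lower, and PSMA2 (-0.0040), PSMB2 (0.161), PSMC2 (0.070), PSMG4 (-0.246) and UCHL5 (0.329) changed sign. With the most variable probe set PSMA1 (-0.077), PSMA3 (0.124), PSMB4 (0.048), PSMD6 (-0.054), PSMD9 (0.408), PSMG4 (-0.246), TXNL1 (0.166) and CANX (-0.083) did, and the PSME1 to PSME3 ratio changed by -1.02. With the mean of probe sets PSMA1 (-0.029), PSMD6 (-0.025) and PSMD9 (0.151) did. Without dim genes 14 members were lower and 5 partners higher, and with an intensity trend 18 and 6. With the trend 15.1% of all genes were lower and 13.1% higher. No share of all genes was computed without dim genes or with only probe sets specific to 1 transcript. The member and partner counts under these settings therefore have no background to be read against. Median centring turned PSMA1 (-0.015), PSMA5 (-0.0083), PSMB6 (-0.0086) and PSMD6 (-0.012), array weights the same genes (-0.012, -0.015, -0.022 and -0.015), and repeated quantile normalization PSMB4 (0.0025) and POMP (0.016). Except where a construction is named, the cause was not tested. Leaving out each array gave 0 to 2 members higher, 5 to 10 lower and 1 to 3 partners higher, beside 7.65% to 9.82% of all genes higher and 9.41% to 12.2% lower. It moved differences near 0 across it: PSMA1 -0.051 to 0.036, PSMA5 -0.032 to 0.032, PSMA8 -0.022 to 0.079, PSMB6 -0.055 to 0.042, PSMB7 -0.011 to 0.050, PSMD5 -0.048 to 0.064, PSMD6 -0.056 to 0.053, PSMD7-DT -0.084 to 0.0043 and PSMG3-AS1 -0.019 to 0.132. Same-numbered arrays deviated with correlations of 0.0016 to 0.093, below what pairing was taken to need, and the replicate number as a block gave 4 members higher and 10 lower. Under the block PSMB8 and PSMB8-AS1 passed (adjusted p = 0.0208 and 0.0218) and PSMG3 did not (adjusted p = 0.0604), by limma. Dim probe sets, PSMB8 among them, limit what can be said of their folds.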
